A study of Mus musculus with 28 samples.

Results

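Back skin wounds of C57BL/6J mice on day 12 of healing were compared with the start of the same time course, gene by gene, to describe which transcripts had returned to the start level and which had not. All genes of the raw count table entered: of 29068 gene symbols, 18107 had enough counts to be tested. The comparison used 8 of the 28 RNA-seq libraries of the study, 4 labelled Day12 and 4 labelled Day0. Per the study's methods the mice were 8 weeks old littermates of both sexes with intact Mlkl alleles (MLKL+/+), the wounds were 6 mm punches through shaved dorsal skin down to the fascia, and the whole wound site was taken, scab and epithelial margin included. Both groups carry the treatment label Natural wound healing; the design text names the day 0 tissue as the control. The methods describe tissue of the wound site from day 1 on, and the study's figure legends count the day of wounding as day 1. Neither names a day 0. The design text gives 5 repeats per time point, and 4 libraries per time point were analysed here. Nothing in the labels says that the 4 libraries of a day came from separate animals, so p-values measure the spread between these libraries, which may be in part technical.

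A punch through the skin removes epidermis, hair follicles, dermis, dermal fat and the thin sheet of striated muscle below it, the panniculus carnosus. Repair begins with neutrophils and then macrophages, keratinocytes close the gap from the margin, and fibroblasts fill it with a collagen-rich matrix that is remodelled for weeks afterwards. Mouse back hair grows in cycles; a growing follicle (anagen) contains dividing matrix cells that build the hair shaft and inner root sheath, and melanocytes that pigment the shaft, whereas a resting follicle (telogen) holds few of either.

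Although the methods name both sexes, Xist, which female cells transcribe, had at most 13 counts in any of the 8 libraries. The mean over the 4 listed Y chromosome genes was 4.99 to 5.27 log2 CPM at the start and 5.19 to 5.35 on day 12. Library depth was even, at 36706513 to 40492661 counts per start library and 39986891 to 40655764 per day 12 library. The defining epidermal keratins were abundant in all 8 libraries, as the skin label states: Krt5, the basal keratin, stood at 1206, 602, 652 and 1402 FPKM (fragments per kilobase of gene length, scaled to the library total, as deposited by the authors) in start libraries 1 to 4 and at 758, 789, 787 and 790.1 in day 12 libraries 1 to 4, the order used for all values below. The start libraries were less alike than those of any later day. Their biological coefficient of variation was 26.4%, against 6.5% on day 12 and 5.7 to 10.8% on the other days. Start libraries 2 and 3 were close to each other, and 1 and 4 were less close: the median chi-square per gene was 1.65 between libraries 2 and 3 and 4.06 between 1 and 4, against 8.15 to 10.21 between a library of 1 pair and a library of the other, and 1.93 to 2.45 between day 12 libraries. No pair agreed within sampling noise, so each library was kept as 1 sample. Libraries 1 and 4 were high in muscle regeneration, wound edge and neutrophil genes, libraries 2 and 3 in collagens and resting fibroblast genes, and library 1 in hair and pigment genes. Where a count over a gene group moved by more than 1.5 times when 1 library was left out, the value without it is given beside the count, and for several groups in which these pairs of start libraries differed so are the counts without each pair. The part of this split in other results was not tested.

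**Figure D1:**
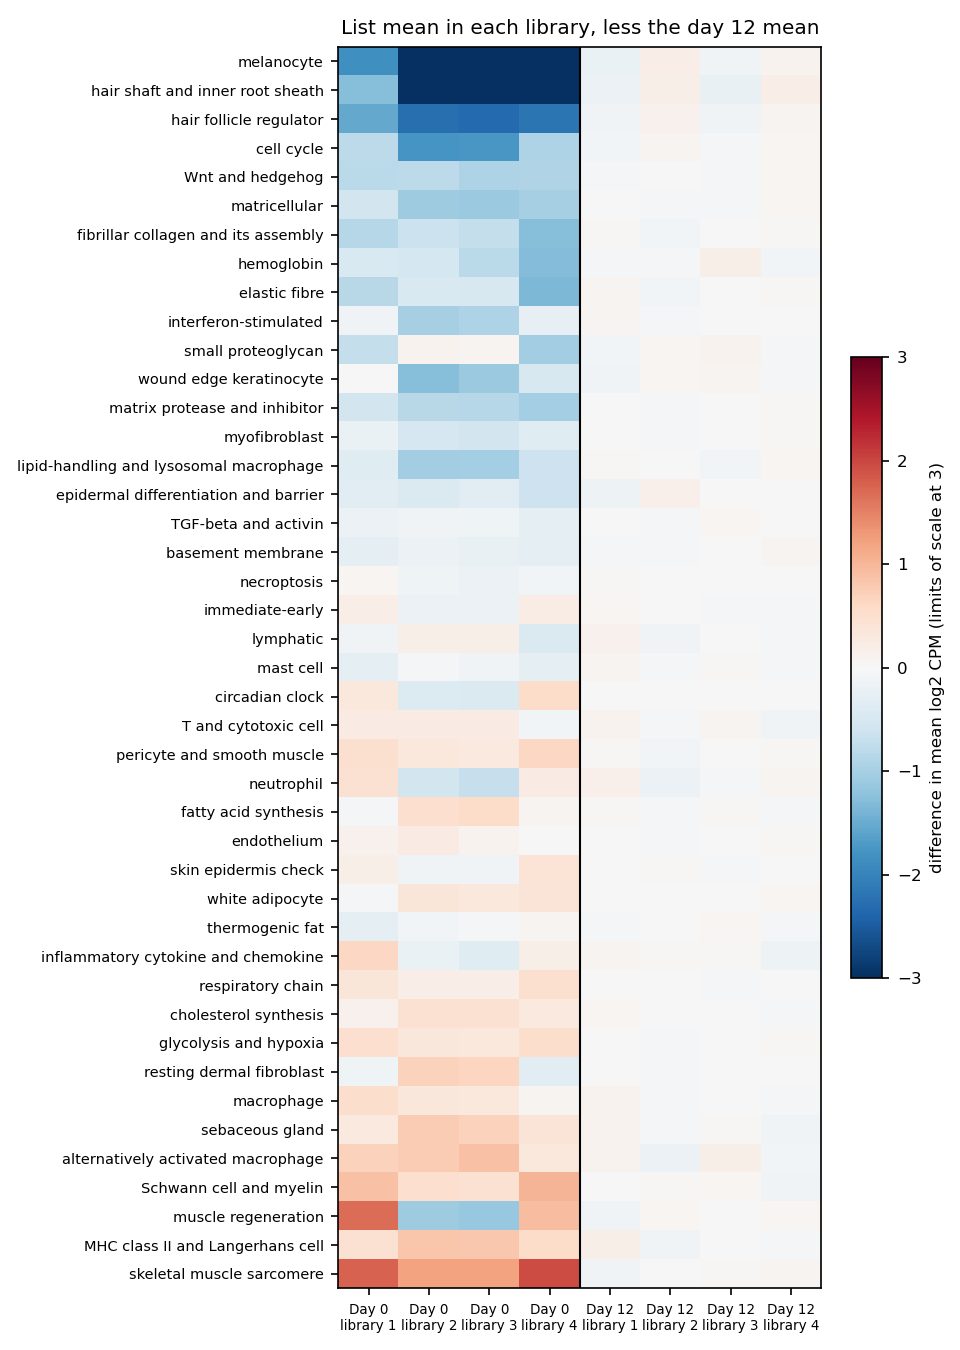
Mean log2 CPM (TMM-scaled counts per library) of each gene list in each of the 8 libraries, less the mean over the 4 day 12 libraries; rows are lists in order of their median log2 fold change, columns are libraries, and colours stop at 3 log2 units either way. The 4 day 12 columns are nearly blank, whereas start libraries 2 and 3 differ from 1 and 4 in the rows for muscle regeneration, circadian clock, wound edge keratinocyte, neutrophil and resting dermal fibroblast genes.

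On day 12, 3080 genes were higher than at the start (17% of the genes tested) and 3606 were lower (19.9%), or 36.9% in all, at a Benjamini-Hochberg adjusted p under 0.05 in the quasi-likelihood test of edgeR. A gene was called at the start level when the whole 95% interval of its fold change lay within 1.5-fold of the start, and 8294 genes met that limit (45.8%). Of these, 2152 also passed the test of a difference, that is, they had changed by a small amount that was well measured. Another 5279 genes (29.2%) were undecided: they neither passed the test nor could be placed within 1.5-fold. The 4 day 12 libraries lay wholly above the 4 start libraries for 18.8% of the genes and wholly below them for 20.2%, together 39%. With the limits of the study's methods, a log2 fold change over 1.5 and an unadjusted p under 0.05, 658 genes were higher (3.63%) and 602 lower (3.32%). The balance between higher and lower depended on scaling. Trimmed-mean (TMM) scaling put the median log2 fold change of all genes at -0.035 and 46.1% of the changed genes on the higher side; scaling to library totals put the median at 0.107, a shift of 0.142, and 69.5% on the higher side, with 5044 genes higher and 2218 lower. FPKM values are scaled to library totals, so the FPKM values below place day 12 about that much higher than the fold changes, which are on the TMM scale. In these bulk samples fewer cells of a type and less RNA per cell cannot be told apart.

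Of the genes that had left the start level early, a minority was measured back at it on day 12, and many could not be placed. On day 3, in its own comparison with the same 4 start libraries, 5112 genes were higher (28.2%) and 5745 lower (31.7%), and 2812 of the former and 4069 of the latter had moved by more than 1.5-fold. Of the 2812 genes raised on day 3, 986 (35.1%) stood at the start level on day 12, 550 (19.6%) were still higher, 249 (8.9%) were lower and 1027 (36.5%) were undecided. Of the 4069 genes reduced on day 3, 816 (20.1%) stood at the start level, 1421 (34.9%) were still lower, 510 (12.5%) were higher and 1322 (32.5%) were undecided. Of all genes 45.8% were at the start level on day 12, 17% higher, 19.9% lower and 29.2% undecided, so the 19.6% still higher was near the share of all genes. The day 3 and day 12 comparisons use the same 4 start libraries, so their directions are not independent. Over the time course the share of all genes at the start level went from 34% (day 3) and 35.6% (day 5) through 42.6% (day 7) and 44.3% (day 10) to the 45.8% of day 12, and was 33.6% on day 14. All 6 comparisons share the start libraries.

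**Figure D2:**
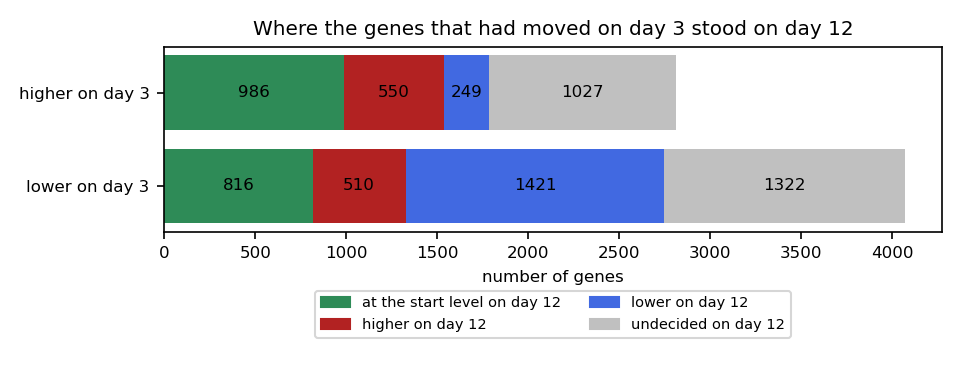
Number of genes, on the horizontal axis, by their state on day 12, for genes raised (top bar) or reduced (bottom bar) by more than 1.5-fold with an adjusted p under 0.05 on day 3. The start-level segment holds 986 of 2812 raised genes and 816 of 4069 reduced genes, and the largest day 12 segment among the reduced genes is the 1421 that were still lower.

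The genes with the largest day 3 increases that were back at the start level on day 12 are described first. Car4, a membrane-bound carbonic anhydrase, stood at 2.79, 2.65, 2.45 and 2.00 FPKM at the start and 2.85, 2.47, 2.37 and 2.56 on day 12, after a day 3 mean of 75.8 ± 4.26 (SD, n = 4). The start and day 12 values overlapped, and the 95% interval of the log2 fold change ran from -0.41 to 0.23, whereas the log2 fold change on day 3 had been 4.98. Plek, which encodes pleckstrin of platelets and leukocytes, stood at 12, 13.2, 13.8 and 10.2 at the start, 86.2 ± 4.61 on day 3 and 13, 11.9, 11.7 and 11.8 on day 12, again with overlap between start and day 12. Lrg1, a glycoprotein made by neutrophils and activated endothelium, stood at 545 ± 17.5 on day 3 and 57, 59.6, 54.4 and 61.2 on day 12. Its start values of 66.2, 63.5, 61.8 and 75.6 were all slightly higher, and this gene lay 1.27-fold below the start (log2 fold change -0.34 ± 0.07 SE, adjusted p = 0.00509), within the 1.5-fold limit and no longer past the threshold with scaling to library totals. Srgn, the core protein of leukocyte granule proteoglycan, stood at 24.2, 25.7, 25 and 20.9 at the start, 260.4 ± 22.8 on day 3 and 23.9, 19.9, 20.9 and 18.4 on day 12. Its 95% interval of -0.57 to -0.13 lay within the limits, but not when start library 4 or day 12 library 1 or 3 was left out. The small decrease of Srgn passed the test (log2 fold change -0.35 ± 0.10 SE, adjusted p = 0.0221). It did not pass with scaling to library totals, nor in 5 of the 8 fits that left out 1 library. The other 4 of these 8 genes, Gnal, Gpr35, Cd300ld and Ccl7, had day 12 log2 fold changes of 0.11, -0.02, 0.28 and -0.09, and each lost the start-level call in 2 to 7 of the 8 fits that left out 1 library.

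The genes with the largest day 3 losses that were back at the start level are described in the same way. Timp3, the matrix-bound inhibitor of metalloproteinases, stood at 113, 109, 103 and 116 FPKM at the start, at 17.9 ± 0.335 (SD, n = 4) on day 3 and at 117, 115, 120.2 and 118 on day 12. The start and day 12 libraries overlapped, and the 95% interval of the log2 fold change was -0.18 to 0.08. Ptn, the secreted growth factor pleiotrophin, stood at 3.89 ± 0.57 on day 3 and 34.9, 35, 35.4 and 34.8 on day 12, inside the range of the start values of 33.6, 27.5, 24.2 and 40.7. Sostdc1, a secreted inhibitor of BMP and Wnt signalling in follicles, stood at 20.5, 24.1, 23.3 and 24.9 at the start and 28.4, 26, 30.8 and 25.7 on day 12 after a log2 fold change of -2.83 on day 3. Its day 12 values all lay above the start on the FPKM scale, and the log2 fold change after TMM scaling was 0.12 ± 0.08 SE. The remaining genes of this kind, Gsta3, Slc38a3, Foxq1, Mamdc2 and Sema3e, had day 3 log2 fold changes of -4.16, -3.48, -2.85, -2.65 and -2.58 and day 12 log2 fold changes of -0.32, 0.00, -0.26, -0.12 and -0.31. The decreases of Gsta3 (adjusted p = 0.0202) and Sema3e (adjusted p = 0.0187) passed the test, with no overlap on the TMM scale. They did not pass with scaling to library totals, nor in 3 (Gsta3) or 2 (Sema3e) of the fits that left out 1 library. Foxq1 alone among these 8 genes lost the start-level call in a fit that left out 1 library, day 12 library 2.

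Some gene lists were mostly at the start level. Of 10 mast cell genes, 7 were at the start level, against 45.8% of all genes, among them Cpa3 (carboxypeptidase A3) at 61.8, 93.6, 89.6 and 53.4 FPKM at the start and 85.9, 78.1, 85.1 and 68.8 on day 12, and Mcpt4 (a mast cell chymase) at 218, 253, 257 and 219 and 254, 209, 235 and 186. The start and day 12 values of both overlapped. Of the list 2 genes rose and 1 fell, against 17% and 19.9% of all genes. The largest rise was in Fcer1a, the IgE receptor alpha chain, at 0.82, 1.01, 0.568 and 0.581 and 2.85, 3.01, 3.3 and 3.32 (log2 fold change 1.92 ± 0.22 SE, adjusted p = 0.000258). Of 21 endothelial genes 12 were at the start level and 8 had fallen, against 45.8% and 19.9% of all genes (median log2 fold change -0.21). With scaling to library totals 5 had fallen. Vascular cadherin Cdh5 stood at 26.4, 32.3, 31 and 22.9 and 30.6, 28.7, 29.6 and 32.3 after a day 3 mean of 63.5 ± 2.22. The tight junction gene Cldn5 fell (log2 fold change -0.59 ± 0.10 SE, adjusted p = 0.00244). Of 20 immediate-early genes, which report recent stimulation of cells, 13 were at the start level, 3 had risen and 4 had fallen (against 45.8%, 17% and 19.9% of all genes; 5 and 2 with scaling to library totals), after 12 had been higher on day 3. Fosl2 lay at 16.4, 16.5, 16.4 and 15.9 and 19.6, 18.6, 19.8 and 19.2, all higher on this scale, with a log2 fold change of 0.10 ± 0.05 SE after TMM scaling (adjusted p = 0.129). The counts were 11 higher and 5 lower without start libraries 1 and 4, and 4 higher and 7 lower without 2 and 3. Egr1, a zinc finger factor of the same list, rose (log2 fold change 0.73 ± 0.09 SE, adjusted p = 0.000461). Of 10 necroptosis genes 7 were at the start level, against 45.8% of all genes, with Casp8 at 0.04 and Ripk1 at -0.04. The nuclear-encoded respiratory chain list was shifted as a block by a small amount, with a median of -0.29 and a range of -0.51 to -0.12. Of 26 genes 22 were lower and 21 of the same 26 within 1.5-fold, against 19.9% and 45.8% of all genes. Of these genes 5 were called lower with scaling to library totals, and 12 without start library 1.

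Hair follicle genes were far above the start. Of 37 tested genes of the hair shaft and inner root sheath, 31 rose, none fell and none were at the start level, against 17% of all genes higher; the median log2 fold change was 2.58, or 3.64 without start library 1, against -6.98 on day 3, when 37 of 37 were lower. Between these days the list median did not rise steadily, with -6.25 on day 5, 0.75 on day 7 and -4.77 on day 10. For day 12, leaving out start libraries 1 and 4 together gave 37 genes higher and leaving out 2 and 3 gave 22. Krt71, a type II keratin of the inner root sheath, stood at 274, 84.5, 78 and 36.1 FPKM at the start and 690.4, 859.7, 666 and 889 on day 12 (log2 fold change 2.58 ± 0.51 SE, adjusted p = 0.00558). All 4 day 12 values lay above the start values, of which library 1 was the highest by far. Its type I partner keratin Krt25 showed the same order, with 205, 58, 52.3 and 26.1 at the start and 575, 708, 551 and 745 on day 12 (log2 fold change 2.78 ± 0.53 SE, adjusted p = 0.00482). Krt27, a second type I keratin of that sheath, stood at 151, 53.1, 54.7 and 16.2 and 313, 369, 291 and 398 (log2 fold change 2.18 ± 0.52 SE, adjusted p = 0.0124). S100a3, a calcium-binding protein of the hair cuticle, had the largest change of the list, from 45, 5.53, 7.84 and 11.1 to 217, 265, 208 and 273 (log2 fold change 3.66 ± 0.57 SE, adjusted p = 0.00224). Without start library 1 the log2 fold changes of Krt71, Krt25, Krt27 and S100a3 were 3.43, 3.71, 2.93 and 4.76. The smallest was in Krt26, where the start values of 9.43, 4.00, 4.74 and 1.55 overlapped with day 12 values of 8.56, 11.7, 9.72 and 11.5 and the test was not passed (log2 fold change 0.93 ± 0.42 SE, adjusted p = 0.116, or past the threshold without start library 1). Keratins and keratin-associated proteins of this list include near-identical copies whose reads the counting could have divided among them, so single members are less certain than the list.

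Because these genes moved together, their promoters were read from the RefSeq table (GRCm38.p6, the assembly also called mm10), 250 bases before to 50 after each annotated start. Entries were found for 31 of 38 listed genes, with 34 promoters. The letters TATAAA, on either strand, were present in 25 of the 34 (73.5%) and in 4473 of all 32851 promoters (13.6%), and the letters CTTTGAA, likewise on either strand, which Lef1 and related Wnt effectors can bind, in 10 of 34 (29.4%) and in 1687 of all (5.14%). The matches of each motif were counted without regard to the other. Both motifs were chosen after the values were seen, and a match describes letters only. The 120 bases before the annotated start of the 3 inner root sheath keratins above are shown to place the TATAAA match, given in capitals, which began 30, 15 and 40 bases before the annotated start of Krt25, Krt27 and Krt71.
Krt25 (chr11:99322952-99323071, minus strand): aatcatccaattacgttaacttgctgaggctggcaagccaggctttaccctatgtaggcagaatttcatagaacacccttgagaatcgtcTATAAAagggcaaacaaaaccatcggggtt
Krt27 (chr11:99351119-99351238, minus strand): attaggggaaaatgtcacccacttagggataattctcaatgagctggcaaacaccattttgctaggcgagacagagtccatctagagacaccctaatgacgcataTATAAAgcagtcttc
Krt71 (chr15:101743098-101743217, minus strand): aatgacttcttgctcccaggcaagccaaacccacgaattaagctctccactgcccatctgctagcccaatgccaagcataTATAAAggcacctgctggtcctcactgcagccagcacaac

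Regulators of the growing follicle rose with the shaft genes. Of 21 tested follicle regulators 18 rose and none fell, against 17% and 19.9% of all genes. The median log2 fold change was 1.97, against -2.70 on day 3. Shh, the hedgehog ligand of anagen follicle epithelium, stood at 0.375, 0.0775, 0.0444 and 0.152 FPKM at the start and 2.6, 2.9, 3.36 and 2.91 on day 12 (log2 fold change 4.03 ± 0.47 SE, adjusted p = 0.000327). All 4 day 12 libraries were far above the start libraries, and the log2 fold change was 4.89 without start library 1. Its receptor and target Ptch1 moved from 5.66, 5.69, 5.17 and 5.43 to 13.3, 13.8, 13 and 14.2, with little spread in either group (log2 fold change 1.16 ± 0.05 SE, adjusted p = 5.23e-06). The homeobox factor Dlx3, needed for hair shaft formation, rose from 14.9, 5.85, 5.7 and 5.72 to 57.8, 70.9, 60.1 and 73.3 (log2 fold change 2.88 ± 0.30 SE, adjusted p = 0.000242). Gata3, a transcription factor of the inner root sheath and of the interfollicular epidermis, was at the start level with 19.7, 13.7, 15.9 and 18.9 and 19, 23.1, 20.4 and 21.7. Foxe1, a forkhead factor of the follicle, stood at 0.925, 0.325, 0.394 and 0.511 and 7.81, 10.7, 7.43 and 9.95 (log2 fold change 3.91 ± 0.29 SE, adjusted p = 4.88e-05). Of 31 Wnt and hedgehog genes 16 rose and 4 fell (median 0.68), against 17% and 19.9% of all genes. Dkk1, a secreted Wnt inhibitor, had no count in any start library and 10 to 30 counts in each day 12 library, 71 in all; against a floor of 3 counts over the start group it was at least 22.8-fold higher. Axin2, a direct Wnt target, lay within 1.5-fold of the start, with 7.77, 7.55, 8.03 and 8.16 at the start and 7.48, 7.5, 7.43 and 7.77 on day 12, although the small decrease passed the test (log2 fold change -0.20 ± 0.05 SE, adjusted p = 0.00983), though not with scaling to library totals. 

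Pigment genes rose as well. Of 12 melanocyte genes 10 rose, 1 fell and 1 was at the start level (median log2 fold change 3.36, or 4.42 without start library 1), against 17%, 19.9% and 45.8% of all genes. Tyr, tyrosinase, the rate-limiting enzyme of melanin synthesis, stood at 0.782, 0.0903, 0.183 and 0.157 FPKM at the start and 4.23, 5.39, 4.39 and 5.24 on day 12 (log2 fold change 3.85 ± 0.53 SE, adjusted p = 0.001). The premelanosome protein gene Pmel rose from 6.01, 1.27, 1.07 and 2.72 to 22.7, 29.3, 24.6 and 31.3 (log2 fold change 3.15 ± 0.46 SE, adjusted p = 0.00129). Dct, dopachrome tautomerase, rose from 15.1, 7.39, 6.71 and 11.3 to 54.5, 66.9, 56.9 and 65.9 (log2 fold change 2.45 ± 0.23 SE, adjusted p = 0.000119). Day 12 was above the start in every library for these 3 genes, and start library 1 held the highest of the start values; without it the log2 fold changes of Tyr and Pmel were 4.95 and 3.88. Mitf, the lineage's transcription factor, was at the start level with 2.61, 3.45, 3.33 and 2.32 and 2.98, 3.27, 3.38 and 3.08. Sox10, which melanocytes share with Schwann cells, fell from 5.87, 4.88, 5.5 and 7.95 to 3.84, 3.66, 4.19 and 4.13 (log2 fold change -0.75 ± 0.14 SE, adjusted p = 0.0035). 

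All 30 cell cycle genes were higher than at the start, against 17% of all genes, with a median log2 fold change of 1.30 and a range of 0.29 to 1.96; on day 3, 26 of them had been higher (median 1.00). Mki67, the proliferation marker Ki-67, stood at 10.3, 5.16, 5.07 and 9.02 FPKM at the start and 21.4, 24.6, 24.6 and 26.2 on day 12 (log2 fold change 1.58 ± 0.22 SE, adjusted p = 0.000787). Top2a, the topoisomerase of dividing cells, stood at 11.9, 5.36, 4.88 and 9.11 and 24.8, 28.6, 25.1 and 27.5 (log2 fold change 1.62 ± 0.25 SE, adjusted p = 0.00134). Every day 12 library exceeded every start library for both, and start libraries 1 and 4 were above libraries 2 and 3. The list counts were 30 higher and 0 lower without start libraries 1 and 4, and 29 higher and 0 lower without 2 and 3, with medians of 1.94 and 0.90. Bub1, a spindle checkpoint kinase, had the largest change of the list (log2 fold change 1.96 ± 0.30 SE, adjusted p = 0.00134). E2f1, a factor of S-phase entry, had the smallest (log2 fold change 0.29 ± 0.08 SE, adjusted p = 0.0161), within 1.5-fold of the start, and missed the threshold without day 12 library 1. Pcna, the replication clamp, rose from 64.2, 51.7, 54.3 and 65.3 to 96.5, 99.8, 94.9 and 102 (log2 fold change 0.60 ± 0.08 SE, adjusted p = 0.000485).

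**Figure D3:**
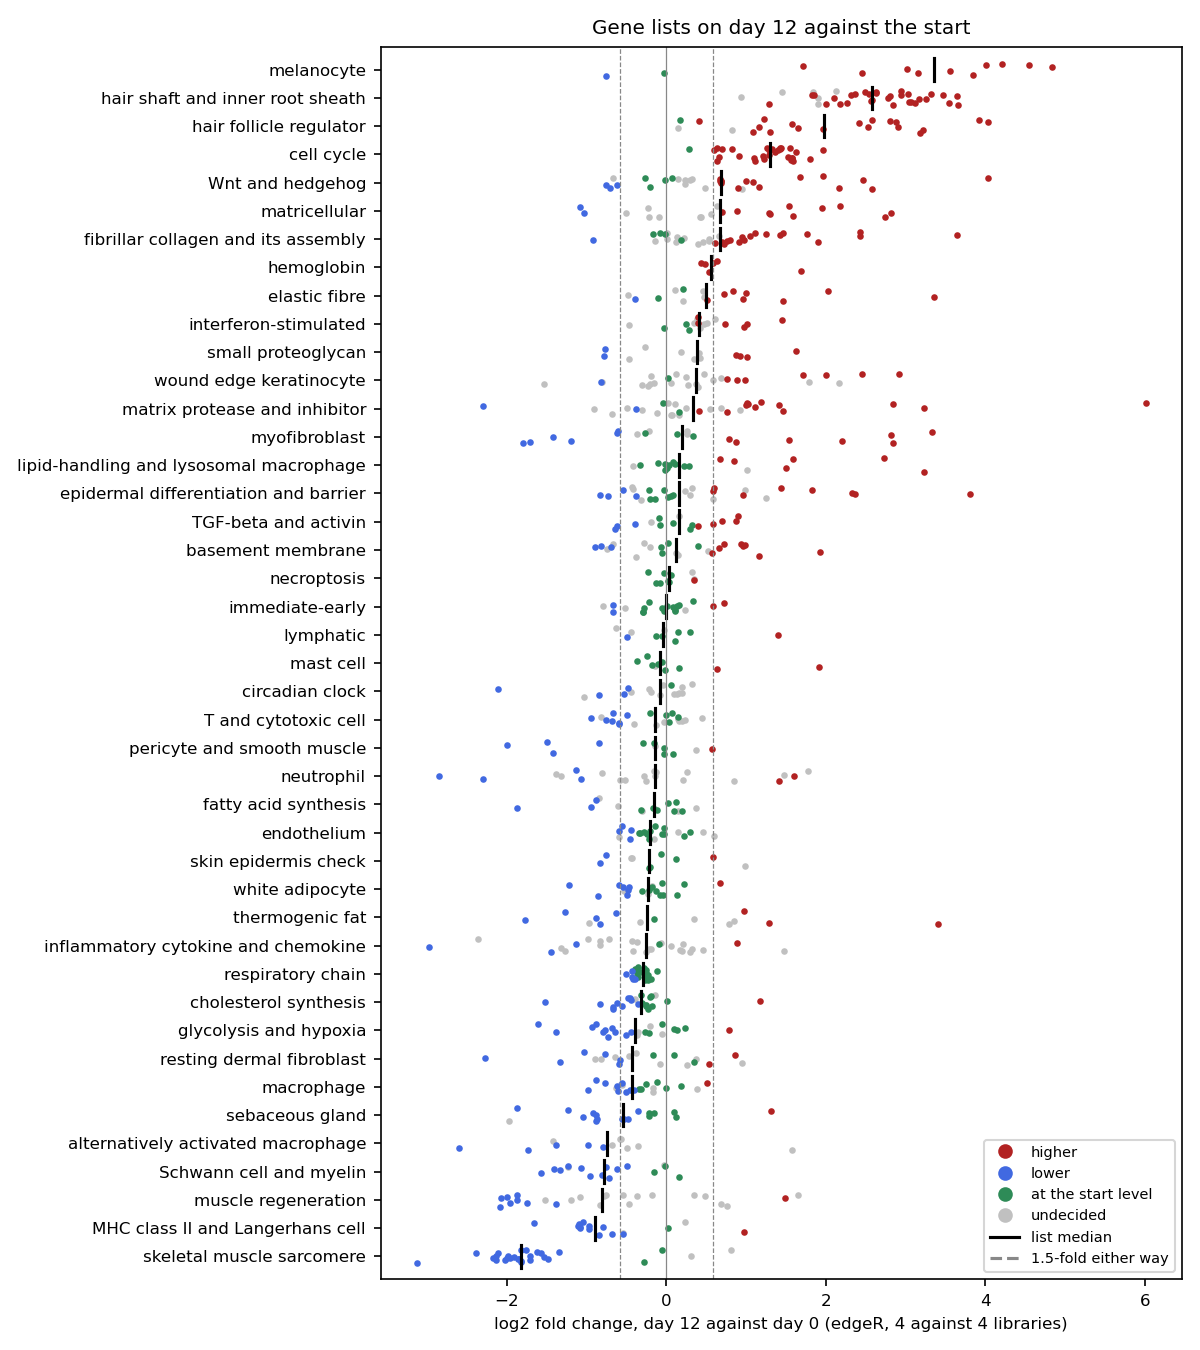
Log2 fold change on day 12 against the start (horizontal axis) of each tested gene in each gene list (rows ordered by median); colours give the state, the black bar the list median and the dashed lines 1.5-fold either way, and genes with no count in 1 of the groups are left out. Melanocyte, hair and cell cycle genes lie almost wholly to the right, skeletal muscle sarcomere genes almost wholly to the left, and immediate-early, mast cell and necroptosis genes around 0.

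Among genes of at least 10 CPM in the higher group whose libraries did not overlap, the largest rise was in a secreted serine protease-like protein, Prss35 (chr9:86743240-86758443, mm10). It stood at 0.448, 0.15, 0.169 and 0.368 FPKM at the start and 19, 19.2, 21.9 and 20.3 on day 12, a 64.4-fold difference (log2 fold change 6.01 ± 0.27 SE, adjusted p = 6.02e-06), with no overlap. On day 3 it had been lower still, at 0.056 ± 0.0306 (SD, n = 4). Next under these limits came Adamts18 (chr8:113697123-113849343), a secreted metalloprotease of the matrix, with 0.24, 0.0857, 0.0795 and 0.0662 at the start and 3.54, 3.67, 3.63 and 3.43 on day 12 (log2 fold change 4.77 ± 0.33 SE, adjusted p = 4.37e-05, or 5.4 without start library 1). The promoter windows of both lack the letters TATAAA. Of 30 matrix protease and inhibitor genes 12 rose, 2 fell and 14 were undecided (median 0.33), against 17%, 19.9% and 29.2% of all genes; 5 fell without start library 4. Mmp9, the gelatinase carried by neutrophils and macrophages, was the lowest of them, from 5.5, 16.4, 15.9 and 4.66 at the start to 2.49, 2.39, 2.24 and 2.42 on day 12 (log2 fold change -2.30 ± 0.40 SE, adjusted p = 0.00276), although it had been higher than the start on day 3 (35.9 ± 0.822). The start values of Mmp9 fell into a high pair, libraries 2 and 3, and a low pair, and all 4 day 12 values lay below both.

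Collagen genes did not move as 1 group. Col11a1 (chr3:114030479-114220756), a minor fibrillar collagen that controls fibril width, rose from 1.47, 0.729, 0.545 and 0.744 FPKM to 12, 11.9, 11.4 and 12.9 (log2 fold change 3.65 ± 0.25 SE, adjusted p = 4.13e-05). Col6a1, a chain of beaded-filament collagen VI, rose from 126, 137, 136 and 94.7 to 274, 251, 258 and 272 (log2 fold change 0.95 ± 0.12 SE, adjusted p = 0.000428). The major dermal collagen Col1a1 gave 2411, 2077, 2208 and 2134 on day 12 and 1240, 2742, 2686 and 677 at the start, with overlap (log2 fold change 0.12 ± 0.39 SE, adjusted p = 0.836). Start libraries 2 and 3 lay above all 4 day 12 libraries for Col1a1 and libraries 1 and 4 below them, so this gene was neither called changed nor placed at the start level. Col3a1, the collagen of early repair, was undecided as well, with 1265, 2586, 2454 and 748 at the start and 2984, 2654, 2845 and 2846 on day 12 (log2 fold change 0.54 ± 0.35 SE, adjusted p = 0.257). Over the list of fibrillar collagens and their assembly enzymes 18 of 34 rose and 1 fell (median 0.67), against 17% and 19.9% of all genes. Without start libraries 1 and 4 the counts were 23 and 9, and without 2 and 3 they were 29 and 0.

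About as many matricellular and elastic fibre genes rose as did not, and few fell. Postn, periostin of granulation tissue, stood at 136, 76, 75.7 and 88.6 FPKM at the start and 716, 737, 705 and 767 on day 12 (log2 fold change 2.82 ± 0.17 SE, adjusted p = 2.68e-05), and 108 ± 5.8 on day 3. 10 of 20 matricellular genes rose and 2 fell (median 0.67), against 17% and 19.9% of all genes. Thbs2, thrombospondin 2, rose from 36.7, 25.3, 24.5 and 31.6 to 80.4, 75.2, 80.1 and 83.4 (log2 fold change 1.29 ± 0.12 SE, adjusted p = 0.000109). Tgfbi, a keratoepithelin that binds collagen, fell instead, from 282, 315, 310.3 and 242 to 165, 137, 152 and 146 (log2 fold change -1.08 ± 0.10 SE, adjusted p = 0.000118). Among 16 elastic fibre genes 8 rose and 1 fell (median 0.49), against the same shares of all genes. Eln, tropoelastin, stood at 37.6, 37.9, 38.5 and 18.6 at the start and 106, 98.1, 100.3 and 101 on day 12 (log2 fold change 1.47 ± 0.20 SE, adjusted p = 0.000813). Fbn2, the fibrillin of developing tissue, rose from 0.361, 0.507, 0.501 and 0.0941 to 3.96, 3.85, 4.09 and 4.72 (log2 fold change 3.35 ± 0.38 SE, adjusted p = 0.000361). Mfap4, a microfibril protein, rose from 96.2, 83, 82 and 49 to 398, 337, 351 and 306 (log2 fold change 2.02 ± 0.19 SE, adjusted p = 0.000115). Day 12 lay above the start in all libraries for these 3 genes. Among 12 small proteoglycans 4 rose and 2 fell (against 17% and 19.9% of all genes), with 4 higher and 7 lower without start libraries 1 and 4, and 8 higher and 2 lower without 2 and 3. Bgn, biglycan, rose from 331, 273, 282 and 208 to 641, 596, 595 and 591, and Fmod, fibromodulin, fell from 18.4, 17.6, 16.2 and 22 to 13.5, 10.6, 11.8 and 11.8. 9 of 23 basement membrane genes rose and 3 fell (median 0.12; 17% and 19.9% of all genes).

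The myofibroblast list held genes on both sides. 8 of 20 rose, 6 fell and 3 were at the start level (5 without start library 3), against 17%, 19.9% and 45.8% of all genes. Lrrc15, a surface protein of activated fibroblasts, rose from 14.2, 3.36, 4.15 and 4.66 FPKM to 73.6, 73, 69.6 and 76.8 (log2 fold change 3.34 ± 0.40 SE, adjusted p = 0.000524, or 4.05 without start library 1). Acta2, smooth muscle actin, the usual myofibroblast marker, was undecided, with 152, 99.8, 101 and 185 at the start and 129.5, 127, 124 and 131 on day 12 (log2 fold change -0.21 ± 0.18 SE, adjusted p = 0.392). The contractile genes that fell are also expressed by vessel walls and muscle. Cnn1, calponin, fell from 13, 10.1, 9.37 and 18.7 to 5.4, 5.01, 5.31 and 5.3 (log2 fold change -1.42 ± 0.19 SE, adjusted p = 0.000721). Tpm2, tropomyosin 2, fell from 636, 427, 437 and 713 to 167, 176, 176 and 180.2 (log2 fold change -1.80 ± 0.16 SE, adjusted p = 8.74e-05). Start libraries 1 and 4 were the highest for Acta2, Cnn1 and Tpm2. Resting dermal fibroblast genes gave 3 higher and 6 lower of 20 (median -0.43; 17% and 19.9% of all genes), with 10 lower without start library 4, 4 higher and 13 lower without start libraries 1 and 4, and 8 higher and 6 lower without 2 and 3. Gsn, gelsolin, fell from 979.8, 1629, 1601 and 892 to 689, 677, 679 and 720.1 (log2 fold change -1.03 ± 0.20 SE, adjusted p = 0.0043). In the TGF-beta and activin list 7 of 15 rose and 3 fell, against 17% and 19.9% of all genes. Tgfb1, the main ligand of wounds, was at the start level with 32.2, 24.7, 24.6 and 29.3 and 33, 30.6, 31.6 and 33.9 after 58.2 ± 2.94 on day 3.

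Neutrophil and cytokine genes, nearly all higher on day 3, were mostly undecided on day 12. All 24 neutrophil genes had been higher on day 3, with a median log2 fold change of 6.63; on day 12 the median was -0.15, 2 were higher, 4 lower and 18 undecided, against 17%, 19.9% and 29.2% of all genes. S100a8, calprotectin, shown after its values were seen, stood at 20, 4.91, 3.51 and 23.6 FPKM at the start, 3050 ± 359 (SD, n = 4) on day 3 and 11.6, 13.7, 15.7 and 9.95 on day 12. Start libraries 1 and 4 held the high values and 2 and 3 the low ones, with day 12 between them. Retnlg, a resistin-like protein of neutrophils, fell below the start, from 1.26, 2.11, 1.63 and 0.448 to 0.246, 0.121, 0.162 and 0.288 (log2 fold change -2.86 ± 0.55 SE, adjusted p = 0.00316). Without start libraries 1 and 4, 10 neutrophil genes were higher and 5 lower, and without 2 and 3, 2 were higher and 10 lower. Of 27 cytokine and chemokine genes 25 had been higher on day 3 (median 3.50). On day 12, 1 was higher, 3 were lower and 22 undecided (median -0.26), against 17%, 19.9% and 29.2% of all genes. The lower count was 1 without start library 2 or day 12 library 2, 3 or 4, and 5 without start library 4. The 1 that rose was Cxcl9, an interferon-induced chemokine, from 3.56, 4.13, 3.28 and 3.4 to 7.72, 8.19, 6.39 and 7.1 (log2 fold change 0.89 ± 0.11 SE, adjusted p = 0.000438). 7 of 16 interferon-stimulated genes rose and none fell (median 0.41), against 17% and 19.9% of all genes. The higher count was 3 or 4 without start library 2 or 3 or any 1 day 12 library, and 3 of 16 is near the share of all genes. Counts were 14 higher and 0 lower without start libraries 1 and 4, and 6 higher and 3 lower without 2 and 3. Ifit1 stood at 9.6, 4.68, 5.92 and 6.42 and 20.2, 20.1, 20.7 and 19.3 (log2 fold change 1.45 ± 0.18 SE, adjusted p = 0.000412).

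Of 22 general macrophage genes 11 fell, 1 rose and 6 were at the start level (median -0.43), or 3 rose without start library 1. Of all genes 19.9% fell, 17% rose and 45.8% were at the start level. On day 3 18 of the list had been higher. Csf1r, the colony-stimulating factor receptor, stood at 68.2, 84, 83.7 and 52.6 FPKM at the start and 54.2, 50.4, 53.2 and 51.5 on day 12 (log2 fold change -0.61 ± 0.14 SE, adjusted p = 0.00961). Lyz2, lysozyme, had returned, with 1165, 1276, 1371 and 868 at the start, 2424 ± 76.4 on day 3 and 1269, 1160, 1153 and 1178 on day 12. Retnla, a resistin-like protein of alternatively activated macrophages, fell from 312, 912, 919.5 and 416 to 116, 115, 116 and 119 (log2 fold change -2.61 ± 0.32 SE, adjusted p = 0.000535). Start libraries 2 and 3 were well above 1 and 4 for Retnla, and all exceeded day 12. 5 of the 12 genes of that list fell and none rose (median -0.74), against 19.9% and 17% of all genes. The lower count was 3 without day 12 library 2 or 4. In the list of lipid-handling and lysosomal macrophage genes 8 of 18 rose, 1 fell and 10 were within 1.5-fold (median 0.16). Of all genes 17% rose, 19.9% fell and 45.8% were within 1.5-fold. The higher count of the list was 5 without start library 2 or day 12 library 1, 2 or 4. Mmp12, macrophage elastase, had the largest rise of this list, from 16, 2.46, 2.23 and 6.99 to 71.2, 67.7, 69.7 and 76.7 (log2 fold change 3.23 ± 0.54 SE, adjusted p = 0.00274, or 4.07 without start library 1), and its day 3 mean was 5.54 ± 0.726.

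Antigen presentation genes were lower. 12 of 16 MHC class II and Langerhans cell genes fell, 1 rose and 1 was at the start level, against 19.9%, 17% and 45.8% of all genes. Their median was -0.90, against -0.56 on day 3. Cd74, the invariant chain, stood at 1152, 2015, 2088 and 1333 FPKM at the start and 965, 825, 868 and 784 on day 12 (log2 fold change -1.08 ± 0.20 SE, adjusted p = 0.00291). H2-Ab1, a class II beta chain, fell from 522, 838, 855 and 604 to 397, 349, 378 and 335 (log2 fold change -1.09 ± 0.16 SE, adjusted p = 0.00107). For both, start libraries 2 and 3 were the highest and every day 12 library was below every start library. The integrin Itgax (CD11c), shared by dendritic cells and macrophages, rose from 4.64, 3.26, 2.86 and 4.17 to 7.68, 7.74, 7.51 and 9.22 (log2 fold change 0.97 ± 0.15 SE, adjusted p = 0.00113). 7 of 21 T and cytotoxic cell genes fell and none rose, against 19.9% and 17% of all genes (median -0.14, against 0.22 on day 3); Prf1, perforin, fell from 2.29, 1.93, 1.59 and 2.25 to 1.06, 1.18, 1.17 and 1.18 (log2 fold change -0.95 ± 0.14 SE, adjusted p = 0.000974). Cd4, the helper T cell coreceptor, was at the start level with 2.47, 3.46, 3.18 and 1.64 and 3.21, 3.04, 3.42 and 2.8, but not in 6 of the 8 fits that left out 1 library, those without start library 2 or 3 or a day 12 library. 

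Muscle genes had not returned. 24 of 28 sarcomere genes were lower than at the start, against 19.9% of all genes, none higher (2 with scaling to library totals) and 2 at the start level, with a median log2 fold change of -1.83, against -2.50 on day 3. Acta1, skeletal actin, stood at 5077, 3270, 3353 and 5182 FPKM at the start and 1190, 1283, 1310 and 1372 on day 12 (log2 fold change -1.85 ± 0.16 SE, adjusted p = 8.45e-05). Ckm, muscle creatine kinase, stood at 2957, 1999, 2033 and 3113 and 654, 703, 704 and 726, 3.99-fold lower on the TMM scale with an SE of 0.15 log2 units (adjusted p = 4.63e-05). Every day 12 library was below every start library, and start libraries 1 and 4 were the highest. Among the 10 largest decreases under the limits of 10 CPM and no overlap were further genes known from striated muscle. Mylk2, skeletal myosin light chain kinase, fell from 103, 59.5, 58.2 and 98.5 to 12.3, 14.8, 15.7 and 15.2 (log2 fold change -2.60 ± 0.19 SE, adjusted p = 4.88e-05). Mstn, myostatin, the inhibitor of muscle growth, fell from 52.5, 28.2, 27.8 and 53.4 to 6.95, 7.97, 7.91 and 7.1 (log2 fold change -2.57 ± 0.22 SE, adjusted p = 8.49e-05). Fbp2, the muscle fructose bisphosphatase, fell from 13.7, 12, 12.3 and 19.7 to 3.27, 2.84, 2.46 and 2.44 (log2 fold change -2.53 ± 0.18 SE, adjusted p = 4.01e-05). For all 3, day 12 did not overlap with the start. Ppp1r27, Klhl38, Sbk2 and Asb12, of the same 10, had log2 fold changes of -2.90, -2.89, -2.81 and -2.53. The muscle regeneration list could not be read as 1 group: 1 of 24 was higher and 8 lower (median -0.81), against 17% and 19.9% of all genes. Without start library 1, 3 were higher and the median was 0.09. However, 14 were higher and 8 lower without start libraries 1 and 4 (median 1.41), and 1 higher and 18 lower without 2 and 3 (median -1.75). Pax7, the satellite cell factor, fell, also in each fit that left out 1 library, from 0.424, 0.147, 0.152 and 0.241 to 0.0425, 0.0923, 0.0757 and 0.0384 (log2 fold change -2.08 ± 0.44 SE, adjusted p = 0.00596). These values were low. Over the 20 alternative fits that held Pax7 the log2 fold change ran from -2.54 to -0.22, and 1 placed it at the start level. 

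Nerve sheath genes were also still low. 11 of 16 Schwann cell and myelin genes fell (19.9% of all genes), none rose and 3 were at the start level, with a median log2 fold change of -0.78 against -1.74 on day 3. Mbp, myelin basic protein, stood at 24.7, 26, 24.9 and 36.6 FPKM at the start, 8.2 ± 0.253 (SD, n = 4) on day 3 and 12.3, 12.3, 12.3 and 12.1 on day 12 (log2 fold change -1.34 ± 0.12 SE, adjusted p = 8.76e-05). All 4 day 12 values lay above the day 3 mean and below the lowest start library.

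**Figure D4:**
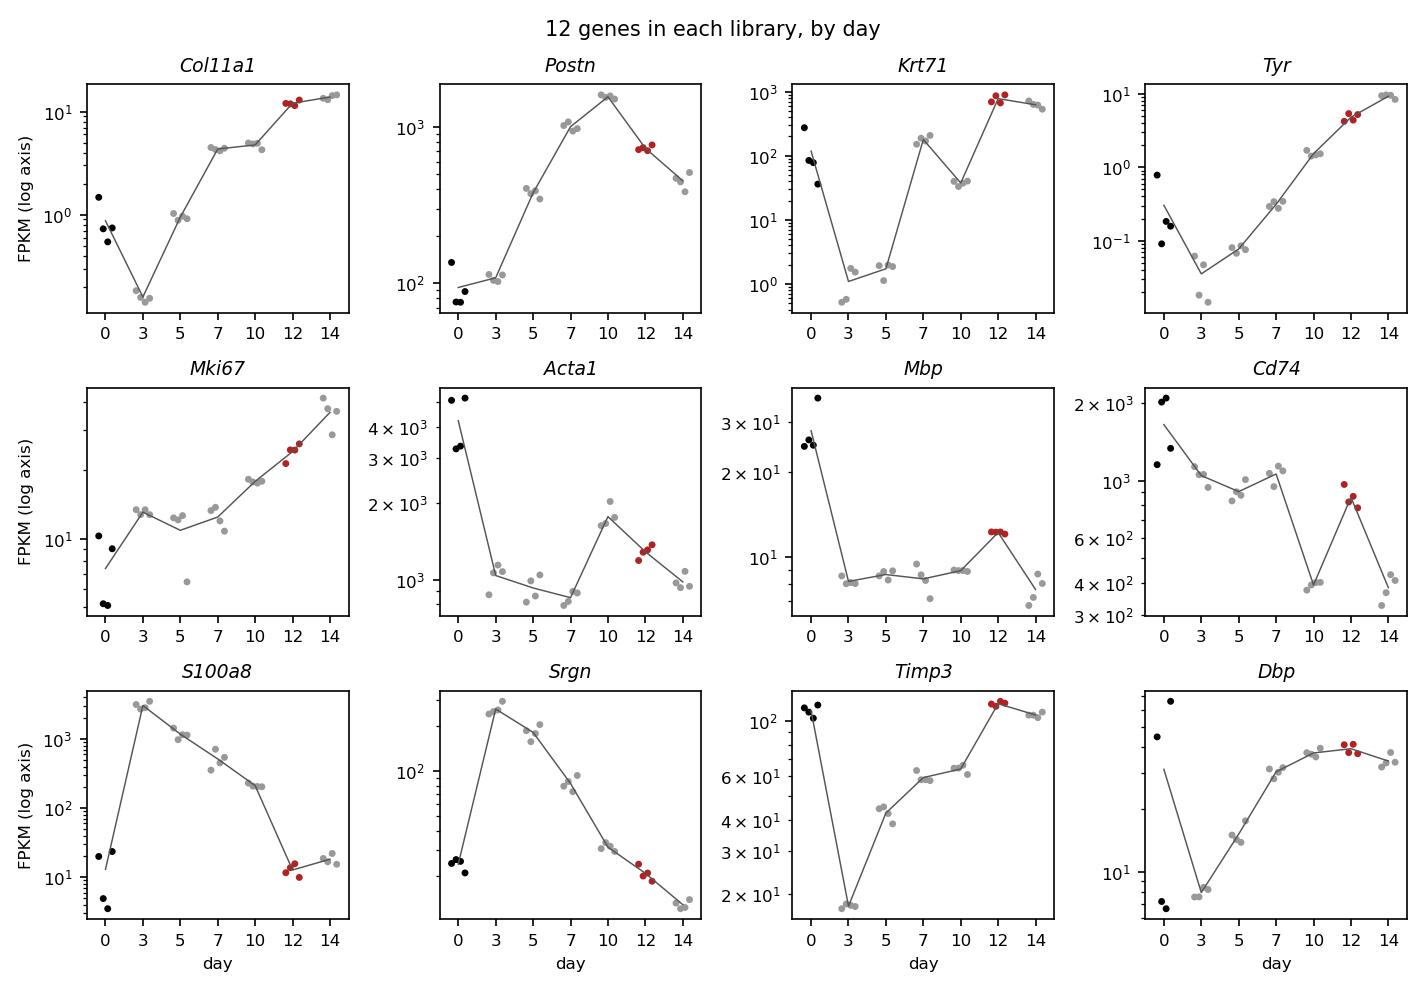
FPKM (log axis) of 12 genes in each library by day; black points are the 4 start libraries, red points the 4 day 12 libraries, grey points the other days, and the line joins the means. Col11a1, Postn, Krt71, Tyr and Mki67 lie above the start on day 12, Acta1, Mbp and Cd74 below it, Srgn and Timp3 near it, and in S100a8 and Dbp the day 12 points lie between the high and low pairs of start libraries.

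Of 20 white adipocyte genes 9 were at the start level, 8 fell and 1 rose (median -0.23). Of all genes 45.8% were at the start level, 19.9% fell and 17% rose. Cfd, adipsin, stood at 2604, 3261, 3168 and 3096 FPKM at the start and 1748, 1787, 1835 and 1988 on day 12 (log2 fold change -0.86 ± 0.09 SE, adjusted p = 0.000202). Adipoq, adiponectin, stood at 392, 481, 461 and 498 and 354, 362, 359.6 and 377 (log2 fold change -0.48 ± 0.08 SE, adjusted p = 0.00204). Day 12 lay below the start in all libraries for both genes. The riser was Lpl, lipoprotein lipase, which macrophages also express (log2 fold change 0.67 ± 0.10 SE, adjusted p = 0.00114). Thermogenic fat genes, of which 9 of 14 had been higher on day 3, gave 3 higher and 5 lower on day 12 (17% and 19.9% of all genes), or 5 higher with scaling to library totals (median -0.24). Ucp1, the uncoupling protein of brown fat, stood at 516 ± 63.5 FPKM on day 3 and 3.44, 7.08, 4.46 and 4.75 on day 12, still above the start values of 0.0935, 0.225, 0.759 and 0.613 (log2 fold change 3.40 ± 0.49 SE, adjusted p = 0.00104). Cox8b, a cytochrome oxidase subunit of brown fat and muscle, was below the start, at 182, 138, 135 and 208 and 74.1, 80.2, 78.4 and 71.4 (log2 fold change -1.27 ± 0.13 SE, adjusted p = 0.000171).

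Of 23 cholesterol synthesis genes 17 fell and 1 rose, against 19.9% and 17% of all genes (median -0.32, against -0.82 on day 3). 9 of the 23 lay within 1.5-fold of the start, 7 of the 17 that fell among them. Of the list 8 fell with scaling to library totals, and 10 or 11 without start library 3 or day 12 library 2, 3 or 4. Msmo1, a sterol demethylase, stood at 123, 140.1, 135 and 163 FPKM at the start and 96.5, 86.9, 90.2 and 74.9 on day 12 (log2 fold change -0.83 ± 0.10 SE, adjusted p = 0.000423). 11 of 18 sebaceous gland genes fell and 1 rose (median -0.55), against 19.9% and 17% of all genes. Scd3, a sebocyte desaturase, fell from 77.8, 105, 97 and 76.8 to 31.6, 25.5, 27.2 and 23.4 (log2 fold change -1.87 ± 0.13 SE, adjusted p = 4.01e-05). Fads2, another desaturase of sebum lipids, rose from 6.3, 7.42, 6.41 and 5.63 to 16.1, 19.4, 16 and 19.4 (log2 fold change 1.31 ± 0.11 SE, adjusted p = 5.89e-05). The fatty acid synthesis list had 4 of 16 genes lower and 7 at the start level, against 19.9% and 45.8% of all genes. The number at the start level was 4 without day 12 library 1. Without start libraries 1 and 4, 12 were lower, and without 2 and 3, 8 were higher. 12 of 22 glycolysis and hypoxia genes fell and 2 rose (median -0.40), against 19.9% and 17% of all genes. On day 3, 17 of them had been higher. Aldoa, the aldolase most abundant in muscle, fell from 1740, 1198, 1213 and 1792 to 526, 534, 535 and 540.4 (log2 fold change -1.62 ± 0.14 SE, adjusted p = 7.74e-05). Ldha, lactate dehydrogenase A, fell from 202, 168, 171 and 223 to 119, 119, 121 and 126 (log2 fold change -0.80 ± 0.09 SE, adjusted p = 0.000282), with a day 3 mean of 249.9 ± 11.6. The sarcomere genes fell in the same libraries; their part in these values was not tested.

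Epidermal keratins moved in both directions. Krt10, the keratin of the spinous layer, was at the start level with 172, 169, 192 and 177 FPKM at the start and 166, 177, 174 and 156 on day 12, after 41 ± 6.84 (SD, n = 4) on day 3. Its small decrease (adjusted p = 0.0415) missed the threshold in every fit that left out 1 library. Krt1, its partner, rose from 224, 169.5, 184 and 237 to 312, 358, 343 and 328 (log2 fold change 0.58 ± 0.10 SE, adjusted p = 0.00288). Krt77, a keratin of sweat ducts and interfollicular skin, fell from 444, 503, 571 and 475 to 306, 328, 317 and 286 (log2 fold change -0.83 ± 0.09 SE, adjusted p = 0.000242). Of 28 differentiation and barrier genes 8 rose, 5 fell and 7 were at the start level (median 0.16), against 17%, 19.9% and 45.8% of all genes. The lower count was 3 without start library 3 or day 12 library 1 or 4, and 11 were at the start level without start library 4. Wound edge keratinocyte genes, 23 of 27 of which had been higher on day 3 (median 3.31), were mostly undecided on day 12. Of the 27, 7 were higher, 1 lower and 18 undecided (median 0.37), against 17%, 19.9% and 29.2% of all genes. Krt6a, the keratin of activated epidermis, stood at 78.1, 14.2, 12.5 and 43.6 at the start, 360.2 ± 36.5 on day 3 and 53.5, 58.9, 58 and 54.8 on day 12 (log2 fold change 0.47 ± 0.51 SE, adjusted p = 0.507). Start library 1 was above and libraries 2, 3 and 4 were below day 12 for Krt6a, and without library 1 the log2 fold change was 1.14 (adjusted p = 0.0551). Without start libraries 1 and 4, 16 of the list were higher and 3 lower, without 2 and 3, 6 and 6, without start library 1, 12 were higher, and without day 12 library 2, 4. Krt17, which the growing follicle also expresses, rose from 278, 272, 275 and 213 to 496, 577, 509 and 542 (log2 fold change 0.89 ± 0.10 SE, adjusted p = 0.000243). The gap junction gene Gjb2 rose from 38.5, 14.2, 13.2 and 15.2 to 149.5, 184, 156 and 185 (log2 fold change 2.92 ± 0.32 SE, adjusted p = 0.000301).

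Of 20 genes for mediators that the study names 5 rose, 3 fell and 5 were at the start level (median 0.12), against 17%, 19.9% and 45.8% of all genes. The study chose some of these genes on its own time course, so the counts are not independent of it. The 3 that fell were Mmp9, given above, Egf and Esr1. Egf, epidermal growth factor, stood at 2.85, 2.21, 2.33 and 4.51 FPKM at the start and 1.24, 0.912, 1.07 and 1.18 on day 12 (log2 fold change -1.57 ± 0.22 SE, adjusted p = 0.000902). Esr1, oestrogen receptor alpha, stood at 4.56, 5.17, 4.34 and 4.94 and 3.98, 3.52, 4.35 and 3.95 (log2 fold change -0.41 ± 0.08 SE, adjusted p = 0.00475). The Egf values of the 2 groups did not overlap, and those of Esr1 did on the FPKM scale. Mlkl, the membrane-rupturing effector of necroptosis, stood at 4.92, 3.29, 3.84 and 4.2 FPKM at the start, 9.32 ± 0.509 (SD, n = 4) on day 3 and 5.38, 5.49, 5.76 and 6.07 on day 12. All 4 day 12 values were above the start values, and the rise was just past the threshold (log2 fold change 0.34 ± 0.12 SE, adjusted p = 0.0487). It missed the threshold in 7 of the 8 fits that left out 1 library, all but the one without start library 1, with adjusted p between 0.00947 and 0.125 over the 8. Ripk3, the kinase that phosphorylates it, stood at 7.03, 3.95, 3.47 and 4.92 and 7.24, 6.85, 6.01 and 6.99, with overlap (log2 fold change 0.34 ± 0.20 SE, adjusted p = 0.206), and passed the threshold without start library 1. Tnf stood at 1.05, 0.986, 1.02 and 1.67 and 1.51, 2.05, 1.9 and 1.66 (log2 fold change 0.45 ± 0.21 SE, adjusted p = 0.115), and passed it without start library 4. Hk3, a hexokinase of myeloid cells, rose from 2.83, 2.57, 2.31 and 2.63 to 4.8, 4.45, 5.12 and 5.35 (log2 fold change 0.79 ± 0.10 SE, adjusted p = 0.00037). In the exact two-sided permutation test of 4 against 4 libraries Mlkl and Hk3 reached p = 0.0286, the smallest that test can give. A gene without overlap between the groups reaches that value, and 39% of the genes tested had no overlap.

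Several of the 10 largest changes in each direction under the same limits belong to none of these groups. Cyp2g1, a cytochrome P450, stood at 1.3, 0.0666, 0.0824 and 1.22 FPKM at the start and 17.9, 14.2, 16.8 and 13.9 on day 12 (log2 fold change 4.43 ± 0.67 SE, adjusted p = 0.0016). Gnmt, glycine N-methyltransferase of methyl group metabolism, rose from 3.1, 1.34, 2.1 and 0.95 to 42.2, 49.8, 39 and 46 (log2 fold change 4.42 ± 0.28 SE, adjusted p = 3.57e-05). Cps1, the carbamoyl phosphate synthetase of the urea cycle, rose from 0.209, 0.0962, 0.0316 and 0.13 to 1.82, 2.53, 2.04 and 2.39 (log2 fold change 4.09 ± 0.38 SE, adjusted p = 0.000119). All 4 day 12 libraries were above the start for each, and Cyp2g1 was near 0 in start libraries 2 and 3 alone. Dlk1, a Notch-like inhibitor of adipocyte differentiation, rose from 0.757, 0.226, 0.187 and 0.155 to 4.89, 4.69, 4.27 and 5.74 (log2 fold change 3.74 ± 0.43 SE, adjusted p = 0.000378, or 4.56 without start library 1). Bhlha9, a basic helix-loop-helix factor, rose from 2.38, 0.102, 0.358 and 0.135 to 9.33, 11.4, 9.48 and 13.8 (log2 fold change 3.74 ± 0.74 SE, adjusted p = 0.00534, or 5.65 without start library 1). Among the decreases, Pon1, the paraoxonase of lipoproteins, fell from 10.7, 35.3, 37.7 and 18.3 to 4.27, 4.01, 4.39 and 4.37 (log2 fold change -2.73 ± 0.35 SE, adjusted p = 0.000621). Wfdc3, a whey acidic protein domain gene, fell from 3.99, 1.64, 1.94 and 4.88 to 0.492, 0.637, 0.769 and 0.424 (log2 fold change -2.56 ± 0.36 SE, adjusted p = 0.000928).

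Circadian clock genes differed between the start libraries as well. Dbp, an output gene of the circadian clock, stood at 44.6, 7.21, 6.65 and 66.2 FPKM at the start and 40.9, 37.5, 41.1 and 37 on day 12 (log2 fold change 0.20 ± 0.65 SE, adjusted p = 0.836). The 4 day 12 values lay together, between the low pair and the high pair of start values. When 1 library was left out the log2 fold change of Dbp ran from -0.14 to 0.88, and was 2.38 without start libraries 1 and 4 and -0.63 without 2 and 3. 4 of 17 clock genes were lower and none higher on day 12, against 19.9% and 17% of all genes (median -0.08, or 0.05 with scaling to library totals), 2 lower without any 1 day 12 library. Without start libraries 1 and 4, 10 were higher and 5 lower, and without 2 and 3, 0 and 11. The labels give no hour of sampling. Red cell transcripts were higher: all 6 rose, against 17% of all genes (median 0.56, against 2.77 on day 3). Hbb-bs, a beta globin with a near-identical copy with which counting could have divided its reads, stood at 209, 214, 208 and 144 and 293, 274, 364 and 307 (log2 fold change 0.53 ± 0.14 SE, adjusted p = 0.0155).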

How the data were processed

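Total RNA of mouse back skin was sequenced in 28 libraries, 4 per time point. The authors deposited a table of raw gene counts and a table of FPKM values; the submitters' processing notes list fastp, R 3.2.0 and mm10 without their roles, and the aligner and the counting program are not given in the sources used here. The 8 libraries labelled Day0 and Day12 were tested with edgeR 4.0.16 in R 4.3.3 (quasi-likelihood test, TMM scaling, filterByExpr over the 7 time points, Benjamini-Hochberg adjustment), with 6 residual degrees of freedom. FPKM values are shown as deposited and were not used in the main test. For single genes a two-sided exact permutation test on log2 CPM was added. The members and the 45 gene lists were chosen with earlier results of these data known.

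Named were the 10 largest increases and decreases among genes with an adjusted p under 0.05, a mean of at least 10 CPM in the higher group and no overlap, predicted genes left out; the 8 largest day 3 increases and decreases back at the start level; for each list the highest and lowest gene and up to 4 of the most abundant, of which those described are a selection, and members opposite to their list; and Mlkl, Ripk3, Tnf and Hk3. S100a8 was added. Alternatives were other scalings and filters, DESeq2 1.42.0, limma 3.58.1 on log2(FPKM + pseudocount), all 28 libraries in 1 fit, a replicate block, Xist level as a covariate, and leaving out libraries. Replicate numbers did not pair the samples. Precision rests on 4 libraries per group and on the depths given above. The values of 1 gene are not reported here.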

Additional observations from a re-analysis of the deposited data

Results flagged for a closer look

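By Dixon's test, in which the gap to the nearest library is divided by the range of the group, 1 library lay far from the other 3 in 8 cases. Both groups of 40 named genes and of 45 list means were examined, and chance alone gives such a gap in about 1 in 20 groups. Among named genes, Pon1 on day 12 was lowest in library 2, at 3.03 log2 CPM against 3.15 to 3.16 in the others (ratio 0.866). Plek on day 12 was highest in library 1, at 5.68 log2 CPM against 5.51 to 5.53 (ratio 0.854). Tnf at the start was highest in library 4, at 1.54 log2 CPM against 0.83 to 0.9 (ratio 0.91).

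Among list means at the start, melanocyte genes were highest in library 1, at 2.41 log2 CPM against 0.62 to 0.78 (ratio 0.909), and T and cytotoxic cell genes were lowest in library 4, at 1.46 against 1.78 to 1.81 (ratio 0.937). On day 12 the white adipocyte list was highest in library 4, at 7.84 log2 CPM against 7.77 to 7.78 (ratio 0.872), and the hemoglobin list highest in library 3, at 4.81 against 4.55 to 4.58 (ratio 0.869). The mean over the 4 listed Y chromosome genes was lowest in library 1 on day 12, at 5.19 log2 CPM against 5.34 to 5.35 (ratio 0.943). The day 12 gaps in Pon1, Plek, white fat and Y chromosome genes were all under 0.2 log2 units.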

How the results depend on the processing

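The number of genes higher on day 12 was 3080 and moved past 1.5 times that count under 4 alternatives: 5044 with scaling to library totals, 5162 and 5139 with limma on log2(FPKM + 1) and log2(FPKM + 0.1), and 4955 without start libraries 1 and 4, an alternative chosen after seeing the data. The number lower was 3606, and 2218 with library totals, 2072 and 2099 with limma at the 2 pseudocounts and 1752 with limma on genes of at least 1 FPKM. With the limits of the study's methods the counts were 658 higher and 602 lower, and with a fold change over 1.5 they were 1542 and 1762. The number at the start level, 8294, was 13630 with limma on log2(FPKM + 1), 3543 with a narrower limit and 11837 with a limit of 2-fold. The shift of the median by library-total scaling moves the balance between higher and lower by its construction; the cause of the other differences was not tested. When 1 library was left out, the counts ran from 2346 to 3412 higher, from 2683 to 3386 lower and from 7646 to 8414 at the start level. DESeq2 gave 3639, 3754 and 8504 genes, and the fit of all 28 libraries 3922, 4633 and 9063. In that fit the counts of lists with at least 2 genes called that grew by more than 1.5 times were, of lower genes, 7 neutrophil, 9 alternatively activated macrophage, 8 cytokine, 6 matrix protease, 11 resting fibroblast, 7 immediate-early and 5 study mediator genes, and, of higher genes, 4 neutrophil, 12 interferon-stimulated, 5 resting fibroblast and 5 thermogenic genes.

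Same-numbered start and day 12 libraries did not deviate together (correlations of -0.07, -0.028, 0.053 and 0.021 for numbers 1 to 4), and only number 4 matched its own number best, so the numbers do not pair the samples. With a replicate block 2712 genes were higher, 2912 lower and 8079 at the start level. Of the genes raised on day 3, 851 stood at the start level on day 12 with library totals and 976 to 1008 when 1 start library was left out, and of the reduced genes 1008 and 770 to 868. Of the 124 named genes, none changed direction among those called under any of the 22 alternatives, and 0 to 6 of the 91 called lost the call, 6 with library totals. Not every alternative held all of them. The minimum of 10 counts in each library kept 116 (83 of those called), and limma on genes of at least 1 FPKM kept 119 (88 called). Calls gained were 0 to 7, except 23 without start libraries 1 and 4 and 12 without 2 and 3. Acta2, Col1a1, Cpa3, Dbp, Gpr35, Krt5, Mitf, Ptn and S100a8 gained a call under both of these, with opposite signs (Dbp 2.38 and -0.63, Col1a1 -0.41 and 1.07). With 4 libraries per group and the spread of the start libraries, 5279 genes were undecided, at depths that were nearly equal in the 8 libraries.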
